A study of Mus musculus with 15 samples.

Results

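The genes described are 9 members of the acute-phase response and the interleukin-1 (IL-1) system, chosen by name: Lcn2, Saa1, Saa2, Saa3, Slpi, Il1b, Il1rn, Il1r1 and Il1rl1. Of these, 7 had a value, each from 1 probe set, among 13513 named genes on the array. Slpi and Il1rl1 were not analysed here. Lcn2, Il1b and Il1rn lie on chromosome 2, Saa1, Saa2 and Saa3 on chromosome 7, and Il1r1 on chromosome 1.

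Affymetrix arrays measured RNA of 3 groups of cells from hearts of C57BL/6 mice aged 8 to 12 weeks, with 5 arrays in each group. CF are cardiac fibroblasts of unstressed control hearts. The other groups come from infarcted hearts, 5 days after myocardial infarction (MI), and are activated cardiac fibroblasts (aCF) and stromal cells of the epicardium (EpiSC). No gene was altered and no drug was given in any group, as far as the labels say, and a sham-operated group is not named in them. EpiSC were released from the heart surface by shear and the fibroblasts came from the digested heart without its atria, so the groups differ in isolation as well as in cell type. Whether the cells were sorted is not given in these sources. Replicates are biological, per the series text.

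Each value is a log2 level relative to the median of its probe set over the 15 arrays. A value of 0 is that median and a difference of 1 is a doubling, but the level of a gene relative to another gene is lost. Genes were named by reading the value of each identifier 6900 rows further down the table, an inference that no header or label states and on which all named results depend. On chromosomes 1, 2 and 7, probe sets of cell cycle genes correlated with the rest of that list at 0.470, 0.473 and 0.555 at this displacement. The highest value at any other of 201 shifts was 0.266, 0.245 and 0.322. Marker lists of heart muscle and of mesothelium also peaked at this displacement, whereas those of macrophages and fibroblasts did not.

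Acute-phase proteins are secreted factors whose output rises in inflammation, in the liver and in local tissue. Lcn2 encodes lipocalin-2, which binds bacterial iron carriers, and is made by neutrophils and by stimulated epithelial and stromal cells. Saa1 and Saa2 encode the serum amyloid A proteins of the liver, while Saa3 is expressed mainly outside the liver. IL-1β, the product of Il1b, is made chiefly by myeloid cells and acts through the receptor encoded by Il1r1, and the antagonist encoded by Il1rn occupies that receptor without signalling. In mesenchymal cells IL-1 induces Lcn2, Saa3, Il6 and chemokine genes through NF-κB, with C/EBP factors taking part.

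The 250 bases upstream of the RefSeq start of the 4 acute-phase members are shown because the groups of Lcn2 and Saa3 stood apart in the same order while those of Saa1 and Saa2 overlapped. Coordinates are of GRCm38.p6, the build of the RefSeq table, and all sequences run 5′ to 3′ on the strand of the gene. Capitals mark a C/EBP core, searched as TTGCNNAA on both strands.
Lcn2, chr2:32387740-32387989, minus strand: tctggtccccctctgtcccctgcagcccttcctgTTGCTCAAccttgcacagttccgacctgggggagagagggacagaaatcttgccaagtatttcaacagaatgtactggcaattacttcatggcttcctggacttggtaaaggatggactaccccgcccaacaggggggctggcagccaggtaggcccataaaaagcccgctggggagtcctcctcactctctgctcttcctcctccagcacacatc
Saa3, chr7:46715677-46715926, minus strand: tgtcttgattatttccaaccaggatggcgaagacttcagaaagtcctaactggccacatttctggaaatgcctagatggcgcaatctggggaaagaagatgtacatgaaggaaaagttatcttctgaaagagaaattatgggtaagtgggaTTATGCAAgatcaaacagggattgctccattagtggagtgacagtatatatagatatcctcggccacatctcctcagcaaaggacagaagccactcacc
Saa1, chr7:46742981-46743230, minus strand: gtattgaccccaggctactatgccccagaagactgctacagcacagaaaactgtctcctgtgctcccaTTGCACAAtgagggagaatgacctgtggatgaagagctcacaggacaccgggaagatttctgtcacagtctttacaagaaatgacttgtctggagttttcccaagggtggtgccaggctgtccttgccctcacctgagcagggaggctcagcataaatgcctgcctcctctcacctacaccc
Saa2, chr7:46751583-46751832, plus strand: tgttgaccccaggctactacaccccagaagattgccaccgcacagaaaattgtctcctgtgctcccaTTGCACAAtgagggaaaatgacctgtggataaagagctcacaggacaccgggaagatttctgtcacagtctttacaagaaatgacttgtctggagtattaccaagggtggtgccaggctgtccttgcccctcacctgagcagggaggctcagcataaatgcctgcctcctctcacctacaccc
Each of these 4 windows held the C/EBP core, against 9.56% of 32851 mouse windows of this length. It lay at -216 to -209 in Lcn2, at -99 to -92 on the opposite strand in Saa3, at -182 to -175 in Saa1 and at -183 to -176 in Saa2. The motif therefore did not separate Lcn2 and Saa3 from Saa1 and Saa2, and a match is a description of letters, not of a bound site. Neither the kappa-B motif (7.25% of windows), nor the AP-1 motif TGANTCA (6.75%), nor TATAAA (12.4%) was found in any of these 4 windows. Each was searched as a single strict pattern, so a missing match does not show that a window lacks sites for NF-κB or other factors. The windows of Saa1 and Saa2 were identical at 238 of 251 aligned positions (94.82%), those of Saa1 and Saa3 at 48.94% and those of Lcn2 and Saa3 at 45.17%. Among the IL-1 members, a C/EBP core lay upstream of the first Il1r1 start, a kappa-B motif upstream of the second Il1r1 start, an AP-1 motif upstream of the first Il1rn start and TATAAA upstream of Il1b.

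Lcn2 was the member with the widest range. In EpiSC it stood at 3.70, 3.34, 3.90, 3.39 and 3.46 on arrays 1 to 5, with a mean of 3.56 ± 0.24 (SD, n = 5). In aCF the values were 0.22, -0.84, 0.56, 0.00 and -0.95, with a mean of -0.20 ± 0.66. In CF they were -1.50, -2.09, -1.42, -1.33 and -1.29, with a mean of -1.53 ± 0.33. The 3 groups did not overlap, and the order was CF, aCF, EpiSC. The SD of Lcn2 over the 15 arrays, 2.27, exceeded that of 99.97% of all probe sets.

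Saa3 showed the same order. Its EpiSC values were 2.24, 2.49, 2.64, 2.71 and 2.46, with a mean of 2.51 ± 0.18. In aCF they were 0.00, -0.62, 0.89, 0.02 and -0.63, with a mean of -0.07 ± 0.62. In CF they were -1.75, -1.20, -1.42, -1.21 and -1.45, with a mean of -1.41 ± 0.22. Again no array of one group reached the range of another, and the aCF arrays were the most spread. Array 3 was the highest of the aCF group for Lcn2 and for Saa3, and arrays 2 and 5 were the lowest for both. Lcn2 and Saa3 correlated at 0.94 over the aCF arrays, but at -0.34 over the CF arrays and at -0.11 over the EpiSC arrays.

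**Figure D1:**
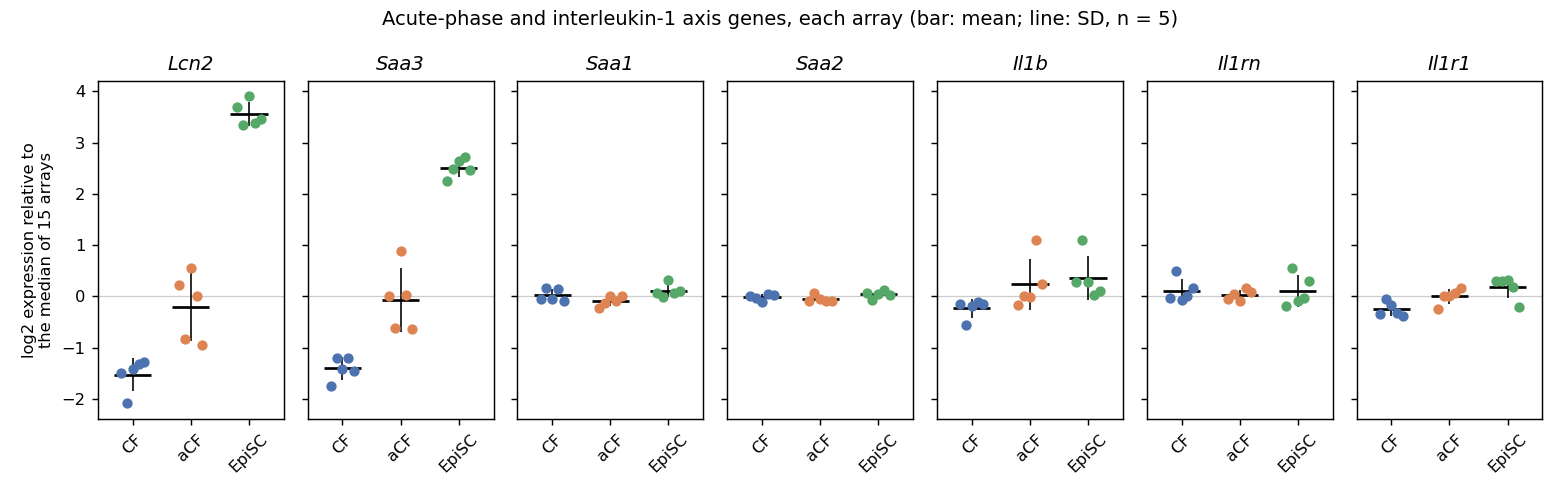
Log2 level relative to the probe set's median over 15 arrays (vertical axis) for the 7 members in CF, aCF and EpiSC. Each point is an array and each bar a group mean, and the groups of Lcn2 and Saa3 stand apart while those of Saa1, Saa2 and Il1rn overlap.

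Saa1 and Saa2 stayed close to their medians in every group. Saa1 lay between -0.09 and 0.17 in CF, between -0.22 and 0.01 in aCF and between -0.01 and 0.31 in EpiSC. Saa2 lay between -0.12 and 0.05, between -0.10 and 0.06 and between -0.07 and 0.12 in the same groups. Their SDs within groups were 0.114 and 0.0686, the latter smaller than in all but 4.28% of probe sets. Saa1 and Saa2 are near-identical copies, so their probe sets may share signal and their separate values are uncertain. With levels lost, values this close to the median can come from a gene that is steady or from one that is not detected.

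The IL-1 ligand, antagonist and receptor varied less than Lcn2 and Saa3. Il1b stood at -0.16, -0.56, -0.19, -0.11 and -0.16 in CF, at -0.17, 0.00, -0.01, 1.10 and 0.23 in aCF, and at 0.27, 1.09, 0.27, 0.03 and 0.11 in EpiSC. Every EpiSC array was above every CF array, and 1 array in each post-infarct group, aCF array 4 and EpiSC array 2, was far above its group. Il1r1 stood at -0.34, -0.05, -0.17, -0.32 and -0.38 in CF, at -0.25, 0.01, 0.00, 0.07 and 0.16 in aCF, and at 0.29, 0.30, 0.31, 0.18 and -0.20 in EpiSC. EpiSC array 5 lay inside the CF range and the other 4 EpiSC arrays lay above every CF and aCF array. Il1rn ranged from -0.07 to 0.49 in CF, from -0.10 to 0.16 in aCF and from -0.18 to 0.55 in EpiSC, with all groups overlapping.

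The first comparison of the series text sets EpiSC against aCF, the stromal populations of the infarcted heart. Lcn2 and Saa3 were higher in EpiSC, and the other 5 members did not pass the test. Lcn2 was higher by 3.76 ± 0.28 (log2, moderated SE from limma), which is 13.5-fold, with a 95% interval of 3.13 to 4.39 and a Bonferroni-adjusted p of 0.00188. Saa3 was higher by 2.58 ± 0.26, or 5.96-fold, with an interval of 2.00 to 3.15 and an adjusted p of 0.0323. Thus 2 of 7 members passed, both higher in EpiSC. Of all 22206 probe sets 0.666% passed, 0.401% higher and 0.266% lower. For 2 of 7 members no EpiSC array fell within the aCF range, a separation that 9.91% of all probe sets showed.

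The Saa3 call was the less firm of the pair. It was kept in 1 of 10 fits that left out an array, the fit without aCF array 3, in which the difference was 2.82 and the adjusted p 0.000774. In the other fits the adjusted p reached 0.187, and after quantile normalization the difference was 2.15 with an adjusted p of 1. The Lcn2 call was kept in all 10 such fits, with adjusted p from 0.00135 to 0.0146, whereas after quantile normalization the difference was 3.19 with an adjusted p of 0.0591.

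For the remaining members the intervals of EpiSC minus aCF bound what the arrays allow. The difference was 0.20 for Saa1 (0.03 to 0.37), 0.09 for Saa2 (-0.04 to 0.23) and 0.12 for Il1b (-0.47 to 0.71). It was 0.08 for Il1rn (-0.23 to 0.38) and 0.18 for Il1r1 (-0.08 to 0.43). The adjusted p was 1 for each of these 5, and their groups overlapped.

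**Figure D2:**
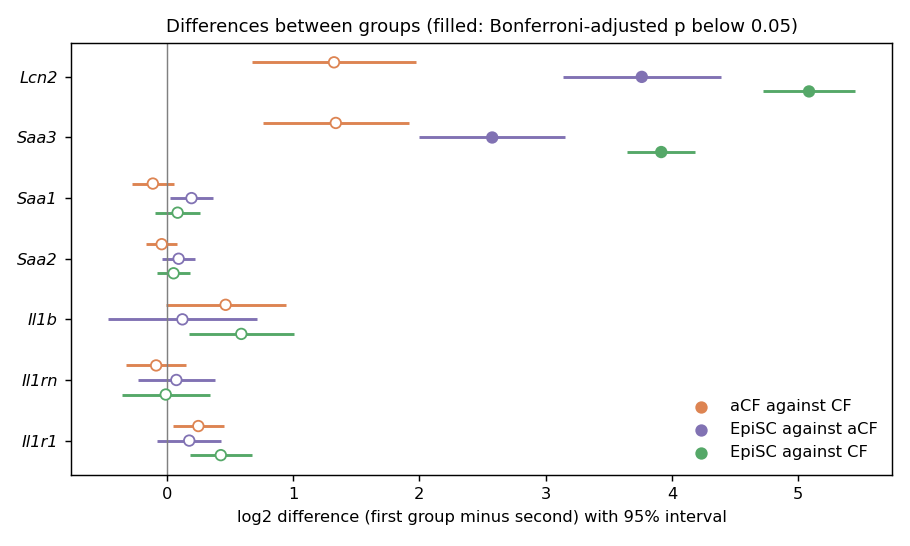
Log2 difference between group means (horizontal axis) of the 7 members in the 3 comparisons, with 95% intervals from limma. Lcn2 and Saa3 lie above 0 in every comparison, and the interval of Il1rn includes 0 in every comparison.

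The second comparison sets aCF against CF, fibroblasts after infarction against those of unstressed hearts. No member passed the Bonferroni threshold, although no aCF array overlapped a CF array for Lcn2 or Saa3. Lcn2 was 1.32 ± 0.29 above CF (0.68 to 1.97, 2.50-fold) and Saa3 1.34 ± 0.26 (0.76 to 1.92, 2.53-fold), each with a Bonferroni-adjusted p of 1. With Benjamini-Hochberg adjustment of the same limma fit, p was 0.0102 for Lcn2 and 0.00547 for Saa3. Thus 0 of 7 members passed Bonferroni, where 1.53% of probe sets did (1.21% higher, 0.32% lower). With the other adjustment 2 of 7 passed, where 18.1% of probe sets did, and 3 of 7 had an unadjusted p below 0.05, where 31.1% of probe sets did. For 2 of 7 members the arrays did not overlap, against 14.7% of all probe sets. Il1b differed by 0.47 (-0.01 to 0.94), and by 0.25 without aCF array 4. Il1r1 differed by 0.25 (0.05 to 0.45), Saa1 by -0.11 (-0.27 to 0.05), Il1rn by -0.08 (-0.32 to 0.15) and Saa2 by -0.04 (-0.16 to 0.08).

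EpiSC against CF is not among the comparisons of the series text and was added, and it shares its EpiSC arrays with the first comparison and its CF arrays with the second. Lcn2 was higher in EpiSC by 5.08 ± 0.16 (4.72 to 5.45, 33.9-fold, Bonferroni-adjusted p from limma 3.73e-07). Saa3 was higher by 3.91 ± 0.12 (3.64 to 4.18, 15.1-fold, adjusted p 2.55e-07). Both calls were kept in all 10 fits without 1 array, with adjusted p up to 7.18e-06 for Lcn2 and 5.19e-06 for Saa3. Here 2 of 7 members passed, both higher, where 2.91% of all probe sets did (1.97% higher, 0.941% lower).

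Il1b and Il1r1 did not pass the Bonferroni threshold in that comparison. Il1b differed by 0.59 ± 0.19 (0.17 to 1.01, Benjamini-Hochberg p from limma 0.0349) and its groups did not overlap. Il1r1 differed by 0.43 ± 0.11 (0.18 to 0.67, Benjamini-Hochberg p from limma 0.0138) and its groups overlapped. With Benjamini-Hochberg adjustment 4 of 7 members passed, where 32.2% of all probe sets did, and 3 of 7 did not overlap, where 23.4% of all probe sets did not. The difference was 0.09 for Saa1, 0.05 for Saa2 and -0.01 for Il1rn.

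**Figure D3:**
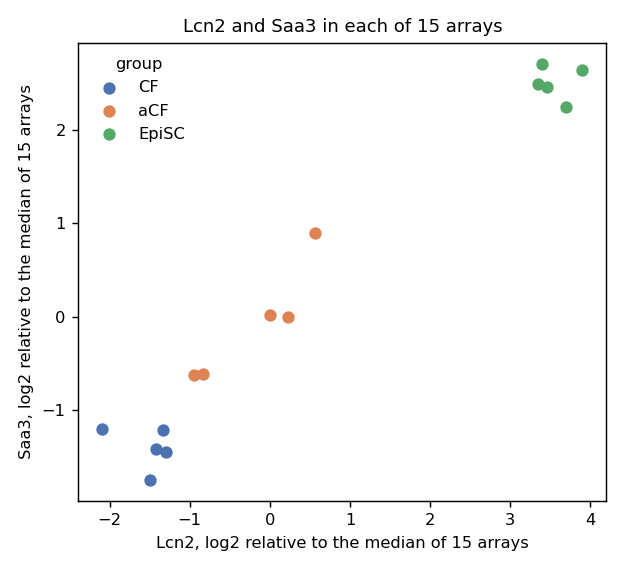
Lcn2 (horizontal axis) against Saa3 (vertical axis) on each of the 15 arrays, both as log2 level relative to the median of the probe set. CF arrays lie at the lower left, EpiSC arrays at the upper right and aCF arrays between them, with aCF array 3 the highest of its group for both genes.

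Markers of cell types moved with the groups. Of 20 mesothelial and epicardial markers, 11 had a value. Their summed level ran from -9.71 to -2.71 in CF, from -7.45 to 2.55 in aCF and from 15.3 to 22.5 in EpiSC. Between EpiSC and aCF, 5 of the 11 were higher and 0 lower, where 0.666% of all probe sets passed. Their median difference was 2.36 against 0.01 over all rows. Wt1, a transcription factor of the epicardium, was higher in EpiSC than in CF by 2.18 ± 0.17 (Bonferroni-adjusted p from limma 0.00271, at most 0.0215 without any 1 array). It differed from aCF by 2.01 ± 0.18 (adjusted p 0.00883), up to 0.0595 without 1 array and 0.43 without aCF arrays 4 and 5. Within aCF, array 3 had the highest mesothelial mean, 0.23, and array 5 the lowest, -0.68. Those arrays were also at or near the extremes for Lcn2 and Saa3. In the other groups the arrays at the ends of the mesothelial means were not all at the extremes for both genes. CF array 2 had the lowest mesothelial mean of CF, -0.88, with the lowest Lcn2 (-2.09) but the highest Saa3 (-1.20). EpiSC array 5 had the lowest mesothelial mean of EpiSC, 1.39, and was the lowest for neither gene. CF array 5 and EpiSC array 3 had the highest mesothelial means of their groups, -0.25 and 2.04. Both also had the highest Lcn2 of their groups (-1.29 and 3.90), while their Saa3 values, -1.45 and 2.64, were not the highest. The part of these markers in the Lcn2 and Saa3 values was not tested, and in RNA of many cells, fewer cells of a type and less RNA per cell cannot be told apart.

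Neutrophils carry Lcn2, and of 16 neutrophil markers 12 had a value. Their summed level ran from -0.96 to 0.00 in CF, from -0.76 to -0.15 in aCF and from 0.98 to 4.23 in EpiSC. None of the 12 passed the limma test between EpiSC and aCF, and 2 had an unadjusted p below 0.05, where 23.9% of all probe sets did. Hdc, histidine decarboxylase, which mast cells also express, accounted for most of the sum with a difference of 1.82, and Mmp8, a neutrophil collagenase, differed by 0.54. Of the mast cell markers with a value, Kit differed by -1.80, Cpa3 by 0.09 and Fcer1a by 0.15. The source of the Hdc values was not tested. The granule and calprotectin genes stayed near their medians, with EpiSC minus aCF at -0.02 for S100a8, 0.23 for S100a9, 0.07 for Ltf, 0.09 for Camp and -0.08 for Ngp. The part of neutrophil RNA in the Lcn2 values was not tested beyond these levels.

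Il1b is chiefly a gene of macrophages and monocytes, of whose 20 markers 12 had a value. Their summed level ran from -2.11 to 0.75 in CF, from 0.81 to 4.69 in aCF and from -2.98 to -0.38 in EpiSC. The macrophage sum was therefore higher in aCF than in CF or EpiSC without overlap. The mean of Il1b was -0.24 in CF, 0.23 in aCF and 0.35 in EpiSC, and its aCF and EpiSC arrays overlapped. The part of macrophage RNA in the Il1b values was not tested. Fibroblast markers (12 of 15 measured) summed to between -0.81 and 0.19 in CF, between 1.47 and 2.50 in aCF and between -5.32 and -0.44 in EpiSC. Single fibroblast genes went both ways. In EpiSC against CF 2 were higher, Col1a1 (0.94) and Col1a2 (0.91), and 0 lower, where 2.91% of all probe sets passed. Without 1 array the Bonferroni-adjusted p of Col1a2 from limma reached 0.0575. With Benjamini-Hochberg adjustment 3 were higher and 7 lower, where 32.2% passed. In aCF against CF 4 were higher and 2 lower, where 1.53% passed, and in EpiSC against aCF 0 and 1, where 0.666% passed. Of 10 pericyte and smooth muscle markers, 3 were higher and 0 lower in aCF than in CF, where 1.53% of all probe sets passed. These were Cnn1 (2.98), Rgs4 (2.38) and Tagln (2.36). Of the 10, 7 had a difference above 0, while Abcc9, Kcnj8 and Vtn differed by -0.62, -0.30 and -0.30. Without 1 array the Bonferroni-adjusted p from limma reached 0.245 for Cnn1 and 0.221 for Rgs4. In EpiSC against aCF 0 of the 10 were higher and 3 lower, where 0.666% passed. In EpiSC against CF the list went both ways, with 2 higher (Cnn1 and Tagln) and 1 lower (Vtn), where 2.91% passed. Of 10 heart muscle markers 0 were higher and 3 lower in EpiSC than in CF, where 2.91% passed. Of the 10, 2 had a difference above 0, Myl7 (1.85) and Nppb (0.16). On aCF arrays 4 and 5 the mean of heart muscle markers, -0.65 and -0.64, lay below that of the other aCF arrays. Without those arrays Lcn2 was 3.58 higher in EpiSC than in aCF (adjusted p 0.0372) and Saa3 2.42 higher (adjusted p 0.722).

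**Figure D4:**
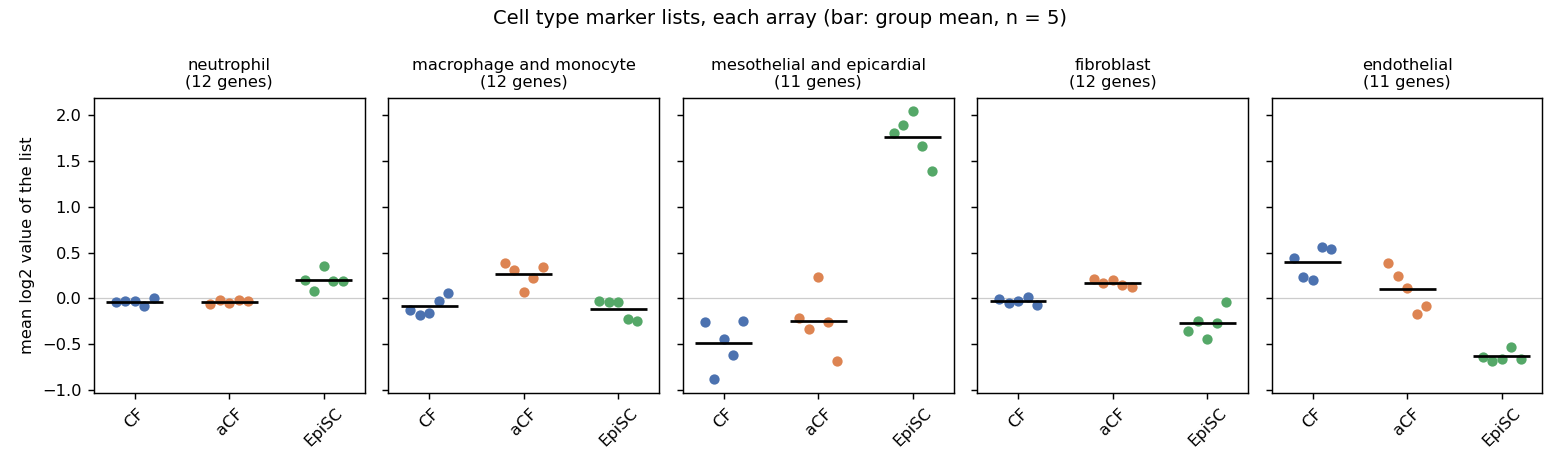
Mean log2 level, relative to each probe set's median, of the measured markers of each cell type on each array (vertical axis), by group. The mesothelial and epicardial list lies between 1.39 and 2.04 in EpiSC and between -0.68 and 0.23 in aCF.

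Other genes of the IL-1 family add ligands and receptors to the members. Of 17 measured genes, members included, 1 was higher and 0 lower in EpiSC than in aCF by the limma test, where 0.666% of all probe sets passed. The median difference was 0.12 against 0.01 over all rows. The gene that passed was Il18, the IL-1 family cytokine that drives interferon-γ production. It had a mean of 1.58 ± 0.30 in EpiSC, -0.57 ± 0.46 in aCF and -0.32 ± 0.54 in CF, and it was higher in EpiSC than in aCF by 2.15 ± 0.22 (Bonferroni-adjusted p 0.0382). That call was kept only without aCF array 4 among the 10 fits leaving out an array, with adjusted p up to 0.224 in the others. Its receptor gene Il18r1 differed by 1.75 ± 0.33 in the same direction with an adjusted p of 1.

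In aCF against CF, 0 of the 17 passed in limma and 4 had an unadjusted p below 0.05, where 31.1% of all probe sets did. Il1rl2, the receptor of the IL-36 cytokines, differed by 0.74 ± 0.09 (adjusted p 0.201). In EpiSC against CF also 0 of 17 passed in limma, while 7 had an unadjusted p below 0.05, a share near the 42.7% of all probe sets that did. Of these, Il18 differed by 1.90 ± 0.25 (adjusted p 0.317) and Il18r1 by 1.91 ± 0.31 (adjusted p 1). The medians of the list were -0.02 and 0.14, against -0.02 and -0.01 over all rows.

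Of 21 genes of IL-1 processing and intracellular signalling, 1 was higher and 0 lower in EpiSC than in aCF, where 0.666% of all probe sets passed. The median difference was 0.14. The gene that passed was Zc3h12a, which encodes the RNase Regnase-1 that degrades cytokine transcripts such as Il6. Zc3h12a was at -0.04 ± 0.21 in CF, -0.89 ± 0.12 in aCF and 0.49 ± 0.32 in EpiSC, and the EpiSC minus aCF difference was 1.38 ± 0.14 (Bonferroni-adjusted p from limma 0.0433). Without each array in turn, the call was kept only when EpiSC array 1 was left out, and p otherwise reached 0.253. In aCF against CF, 0 of 21 passed in limma and 9 had an unadjusted p below 0.05, where 31.1% of all probe sets did, 7 of them lower in aCF. Among them Zc3h12a differed by -0.86 ± 0.10 (adjusted p 0.128) and Pycard, the inflammasome adaptor, by 0.80 ± 0.10 (adjusted p 0.142). In EpiSC against CF, 0 of 21 passed in limma and 7 had an unadjusted p below 0.05, where 42.7% of all probe sets did. Tnfaip3, the NF-κB inhibitor A20, differed by 1.56 ± 0.17 (adjusted p 0.0748).

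For 21 other genes that IL-1 induces in stromal cells, a list that holds no member, the median difference between EpiSC and aCF was 0.51, against 0.01 over all rows. By the limma test 1 was higher and 0 lower, where 0.666% of all probe sets passed. With Benjamini-Hochberg adjustment 9 were higher and 0 lower, where 9.61% of all probe sets passed in either direction. The gene past Bonferroni was Tnfaip6, which encodes the hyaluronan-binding protein TSG-6. It was higher in EpiSC than in aCF by 1.67 ± 0.17 (adjusted p 0.0401) and higher than in CF by 1.94 ± 0.20 (adjusted p 0.0361). Both Tnfaip6 calls were kept only in the fit without EpiSC array 3 and otherwise reached 0.235 and 0.187. Cxcl5, a neutrophil chemoattractant, was higher in EpiSC than in CF by 2.28 ± 0.18 (adjusted p 0.00372), a call kept in all 10 fits. Its group means were -1.18 in CF, -0.00 in aCF and 1.10 in EpiSC.

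Il6, the cytokine that drives hepatic acute-phase output, differed mainly between the unstressed and the post-infarct cells. Its mean was -2.65 ± 0.30 in CF, 0.27 ± 0.26 in aCF and 0.57 ± 0.78 in EpiSC. It was higher in aCF than in CF by 2.91 ± 0.16, or 7.53-fold (Bonferroni-adjusted p from limma 6.61e-05), and this call was kept in all 10 fits. In EpiSC it was 3.22 ± 0.33 above CF (adjusted p 0.0388), a call kept without EpiSC array 3 or 4 and lost in the others. EpiSC minus aCF was 0.30 ± 0.33 (adjusted p 1). Ereg, the growth factor epiregulin, was higher in aCF than in CF by 1.44 ± 0.15 (adjusted p 0.047), kept only without aCF array 1. Thus 2 of the 21 inducible genes were higher and 0 lower in aCF than in CF, where 1.53% of all probe sets passed, with a median of -0.08. With Benjamini-Hochberg adjustment 4 were higher and 5 lower, where 18.1% of all probe sets passed in either direction. In EpiSC against CF, 3 were higher and 0 lower, where 2.91% of all probe sets passed. With Benjamini-Hochberg adjustment 11 were higher and 1 lower there, where 32.2% of all probe sets passed. The median was 0.42 against -0.01 over all rows.

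The acute-phase list had 27 measured genes, members included, and also held Il6, which stands in the inducible list too, and its receptor gene Il6ra. Of the 27, 2 were higher and 0 lower in EpiSC than in aCF, where 0.666% of all probe sets passed. These were Lcn2 and Saa3 themselves. The median difference of the 27 was 0.09. In aCF against CF, 2 were higher and 2 lower with a median of 0.00, where 1.53% of all probe sets passed. Hp, haptoglobin, which binds free haemoglobin, rose by 3.34 ± 0.32 or 10.1-fold (Bonferroni-adjusted p from limma 0.0183), and Il6 was the other. Il6ra, the IL-6 receptor, fell by 1.99 on the log2 scale (SE 0.16, adjusted p 0.00338) and Cp, the copper-carrying ferroxidase ceruloplasmin, fell by 0.65 (SE 0.07, adjusted p 0.0266). The Il6ra call was kept in all 10 fits, that of Hp only without aCF array 1, 2 or 4 and that of Cp only without aCF array 3. After quantile normalization the Hp difference was 2.66 with an adjusted p of 0.769.

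In EpiSC against CF, 4 of the 27 were higher and 1 lower, with a median of 0.10, where 2.91% of all probe sets passed. Hp was higher by 4.31 ± 0.26, or 19.9-fold (Bonferroni-adjusted p from limma 0.00019, kept in all 10 fits), beside Lcn2, Saa3 and Il6. Lbp, the lipopolysaccharide-binding protein, fell by 1.33 from CF to EpiSC (SE 0.13, adjusted p 0.0166), a call kept only without EpiSC array 1 or 3. The means of Hp were -3.20 ± 0.29 in CF, 0.13 ± 0.77 in aCF and 1.11 ± 0.58 in EpiSC, and EpiSC minus aCF was 0.98 ± 0.38 (adjusted p 1). Hp and Il6 thus had their large step between CF and aCF, whereas Lcn2 and Saa3 had theirs between aCF and EpiSC, a contrast described from group means and not tested.

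**Figure D5:**
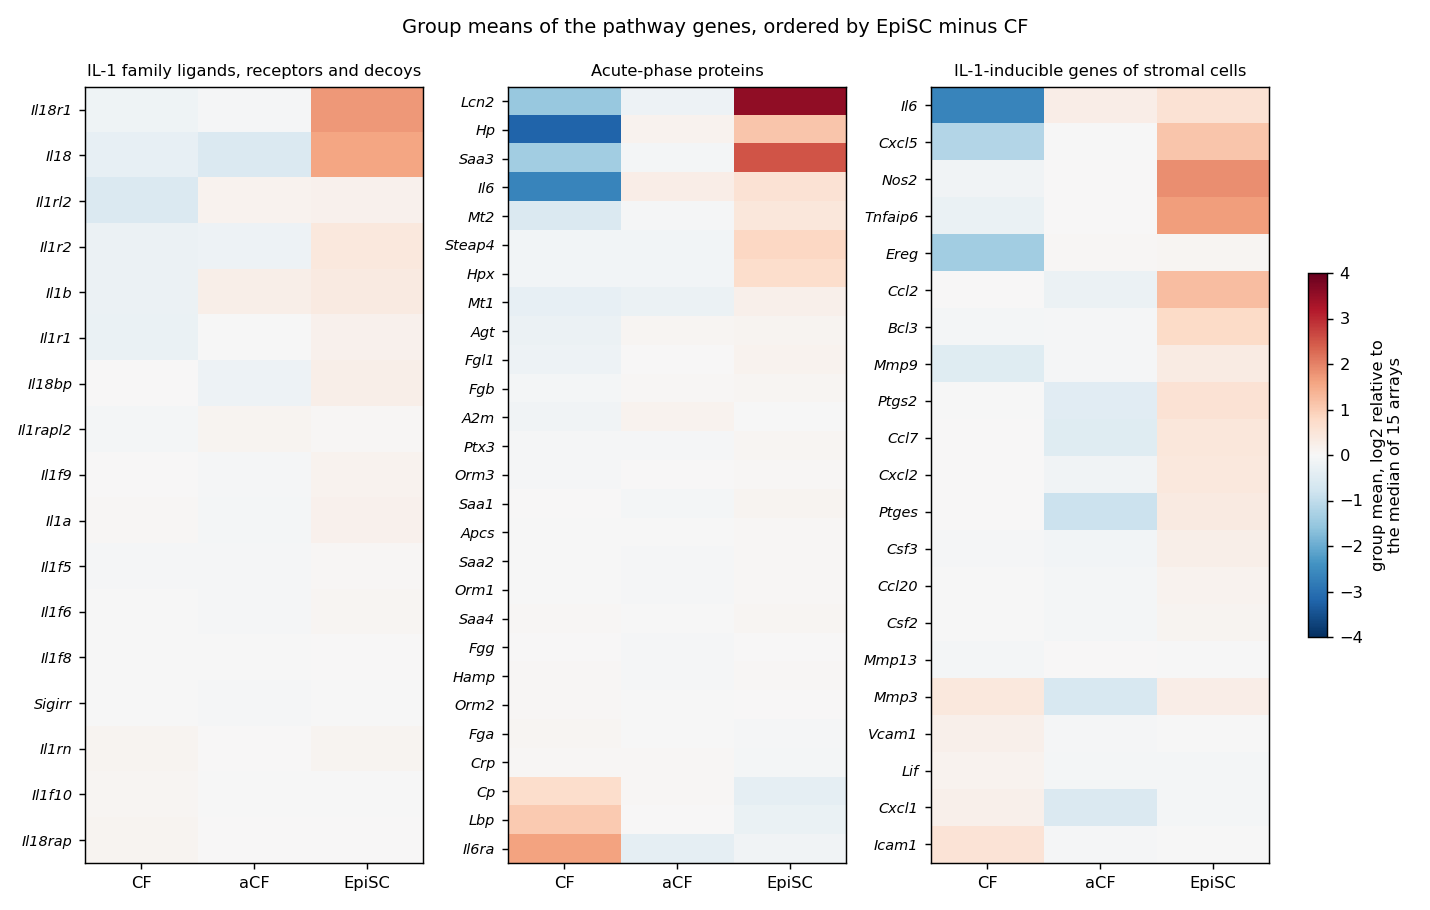
Group mean of the log2 level, relative to each probe set's median, in CF, aCF and EpiSC (columns), as colour. Rows are the measured genes of the IL-1 family, acute-phase and IL-1-inducible lists, members included. Lcn2 and Saa3 have their highest means in EpiSC (3.56 and 2.51), and Il6 and Hp their lowest in CF (-2.65 and -3.20).

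Receptors and partners of the secreted members gave few calls. Of 11 measured genes, 0 passed in limma between EpiSC and aCF and 7 had an unadjusted p below 0.05, where 23.9% of all probe sets did. Cd36, a scavenger receptor that takes up fatty acids and binds serum amyloid A, stood at 0.77 ± 0.22 in CF, -0.19 ± 0.68 in aCF and -2.64 ± 0.35 in EpiSC. From CF to EpiSC it fell by 3.40 (SE 0.17, Bonferroni-adjusted p from limma 2.76e-05, kept in all 10 fits). Its EpiSC minus aCF difference was -2.45 ± 0.31 (adjusted p 0.219). Cd36 is also an endothelial gene, and the endothelial markers (11 of 14 measured) summed to between 2.24 and 6.13 in CF, between -1.92 and 4.26 in aCF and between -7.52 and -5.78 in EpiSC, whose part in the Cd36 values was not tested. Plscr1, a phospholipid scramblase that binds the Slpi protein, was higher in aCF than in CF by 0.89 ± 0.09 (adjusted p 0.0353), kept only without CF array 1. The medians of the list were 0.10, 0.17 and 0.01 in EpiSC against aCF, aCF against CF and EpiSC against CF.

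The list of the whey acidic protein family, whose members are small secreted protease inhibitors and related peptides, had 16 measured genes. It also held Spint3, Spint4 and Svs5, which are not members of that family, so the counts and medians are those of the list. Between EpiSC and aCF 0 passed in limma and 3 had an unadjusted p below 0.05, where 23.9% of all probe sets did, with a median of 0.06. In aCF against CF, 1 was higher and 0 lower, where 1.53% of all probe sets passed, with a median of 0.03. Wfdc18, a member of this family, stood at -2.24 ± 0.29 in CF, 1.53 ± 0.48 in aCF and 0.11 ± 0.77 in EpiSC, and it rose by 3.77 ± 0.22, or 13.7-fold, in aCF against CF (Bonferroni-adjusted p from limma 0.000122, kept in all 10 fits). Its EpiSC minus aCF difference was -1.42 ± 0.36 and its EpiSC minus CF difference 2.35 ± 0.33, with adjusted p of 1 and 0.572. In EpiSC against CF, 0 of 16 passed in limma and 5 had an unadjusted p below 0.05, where 42.7% of all probe sets did, with a median of 0.11.

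Several calls on the listed genes ended under other settings of the limma fit. After quantile normalization the adjusted p in EpiSC against aCF was 0.553 for Il18, 0.0697 for Zc3h12a and 0.32 for Tnfaip6. In aCF against CF it was 0.483 for Cp, 0.292 for Ereg and 0.0783 for Plscr1, and in EpiSC against CF it was 0.126 for Tnfaip6. Without aCF arrays 4 and 5 it was 0.158 for Il18, 0.694 for Zc3h12a and 0.795 for Tnfaip6 in EpiSC against aCF. For aCF against CF it was then 0.169 for Il6ra, 0.436 for Cp, 0.877 for Ereg and 0.37 for Plscr1. With trend and robust eBayes it was 0.0599 for Zc3h12a and 0.0875 for Tnfaip6 in EpiSC against aCF. For aCF against CF the same setting gave 1 for Cp, 0.0605 for Ereg and 0.101 for Plscr1, and in EpiSC against CF it was 0.122 for Lbp and 0.0743 for Tnfaip6.

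The genes most like each member over the 15 arrays were sought among 13506 other named genes by Pearson correlation, given as a description of arrays that share groups. For Lcn2 they were Cxcl13 (0.98), a chemokine that attracts B cells, Slc9a3r1 (0.98), a scaffold beneath the membrane of epithelial cells, and Cd44 (0.98), the hyaluronan receptor. For Saa3 they were Dmkn (0.99), dermokine, Cxcl13 (0.98) and Gja1 (0.98), a gap junction connexin. Dmkn belongs to the mesothelial marker list. Cxcl13 had means of -0.99 in CF, 0.39 in aCF and 4.62 in EpiSC. For Il1r1 they were Cox7b (0.94), Creg1 (0.92) and Rnf114 (0.91), for Il1b Slc25a43 (0.92), Creb3l3 (0.88) and Zfp873 (0.85), and for Il1rn Teddm2 (0.89), Adam24 (0.78) and Prkcz (0.78).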

How the data were processed

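The data are 15 Affymetrix arrays of mouse heart cells, 5 per group. RNA (1 ng, amplified) carried a biotin label, per the labels. In GeneSpring GX 12.5, per the series text, the authors quantile-normalized the probes, applied an exon RMA summary and subtracted the median of all samples. The deposited values are therefore log2 levels relative to each probe set's median, with base 2 inferred from the range, -4.77 to 5.52. The authors' filter on raw signal could not be applied to such values, so all 22206 rows were tested, and the number of arrays limits the precision.

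Values of an identifier were read 6900 rows further down (3 more for identifiers of chromosomes 10 and 11), an inference checked on marker and cell cycle genes, the latter chosen after seeing the data. This paired 15303 rows and named 13513 genes, and for genes with several probe sets the first was used. The first 6900 rows stayed unnamed but were tested. Slpi, Il1rl1 and genes of chromosomes 12 to 19 and of the later part of chromosome 11 were not analysed here.

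Groups were compared in pairs with limma 3.58.1 (lmFit, eBayes) in R 4.3.3, 2-sided, with Bonferroni adjustment over all rows and a threshold of 0.05, as the series text names. The fits were tested on simulated data. Alternatives were Benjamini-Hochberg, a fit of all 3 groups, quantile normalization, trend and robust eBayes, a replicate block, no shared prior, named rows alone, identifiers as deposited, and leaving out arrays. Named genes were the members, up to 4 genes a list past the threshold with the largest differences or, where none passed, up to 3 with the smallest p, and the 3 genes most correlated with each member. Marker genes named singly were chosen after their values were seen. Members, lists and tests were chosen with earlier results of these data known. Promoter windows are from RefSeq (GRCm38.p6), and all 7 members had one.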

Additional observations from a re-analysis of the deposited data

Results flagged for a closer look

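In 21 sets of 5 arrays (7 members in 3 groups), 4 held an array whose gap to the nearest of the others divided by the range of the group exceeded Dixon's 95% critical value. Chance gives about 5% of such groups. CF array 2 was the lowest of its group for Lcn2, at -2.09 with the next array at -1.50, and the gap was 0.738 of the range. The same array was the lowest for Il1b, at -0.56 with the next at -0.19 and a gap of 0.822. EpiSC array 2 was the highest of its group for Il1b, at 1.09 with the next at 0.27 and a gap of 0.774. EpiSC array 5 was the lowest of its group for Il1r1, at -0.20 with the next at 0.18 and a gap of 0.745. The cause was not tested.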

How the results depend on the processing

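Probe sets past the threshold numbered 148 for EpiSC against aCF, 340 for aCF against CF and 647 for EpiSC against CF. With Benjamini-Hochberg they numbered 2135, 4023 and 7157. Without a shared prior they numbered 66, 163 and 347. A fit of all 3 groups gave 369 for EpiSC against aCF and 1060 for EpiSC against CF. Trend and robust eBayes gave 97 for EpiSC against aCF and 212 for aCF against CF. Without aCF arrays 4 and 5 the counts were 50 and 144. Leaving out each array in turn gave 73 to 143, 197 to 272 and 369 to 557, with fewer arrays in each fit. Of the 7 members, 2 passed for EpiSC against aCF, and 0 did after quantile normalization, 1 without a shared prior, 1 without aCF arrays 4 and 5, and 1 to 2 when an array was left out. With Bonferroni and an array left out, 0 passed for aCF against CF and 2 for EpiSC against CF in every such fit. With Benjamini-Hochberg and all arrays, 2 and 4 passed.

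The replicate block, the array number of the labels as a term, gave 41, 94 and 166 probe sets, and 1 member for EpiSC against aCF, where the adjusted p was 0.0134 for Lcn2 and 0.331 for Saa3. Same-numbered EpiSC and aCF arrays correlated at 0.019 to 0.154 after the group means were removed, and not all exceeded 0.1, so the numbers were not taken to pair the arrays. That 4 of 5 EpiSC arrays correlated best with the aCF array of their own number is a hint toward pairing from the data. With the CF arrays, 1 of 5 aCF arrays and 1 of 5 EpiSC arrays did so. CF came from unstressed hearts, so against CF the block is a term without a known pairing. With the block 7 of 20 calls on members and listed genes were kept, and in EpiSC against CF the adjusted p was 0.108 for Hp, 0.436 for Cxcl5, 0.302 for Il6 and 0.705 for Lbp.

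With identifiers as deposited, without the displacement, 0 members passed for EpiSC against aCF and for EpiSC against CF. The differences then turned negative for EpiSC against aCF in Lcn2 (-0.38), Saa1 (-0.67), Saa2 (-0.012) and Il1rn (-0.094, from 0.076), for aCF against CF in Lcn2 (-0.69), Saa3 (-0.11) and Il1b (-1.21), and for EpiSC against CF in Lcn2 (-1.07), Saa1 (-1.11), Saa2 (-0.024) and Il1b (-0.23). Quantile normalization turned Il1rn in EpiSC against CF to 0.026. Leaving out an array gave -0.06 to 0.34 for Il1b and -0.036 to 0.15 for Il1rn in EpiSC against aCF, -0.13 to 0.011 for Il1rn in aCF against CF and -0.12 to 0.087 for Il1rn in EpiSC against CF. Of 283 values of members and named genes under the other alternatives, 224 kept direction and side of the threshold, 54 lost the threshold, 4 gained it and 1 changed sign. These include members that did not pass the main fit and had no call to lose, and Benjamini-Hochberg, which cannot lose a Bonferroni call. Of 20 calls on members and listed genes, 10 were kept after quantile normalization and 13 with trend and robust eBayes. Without aCF arrays 4 and 5, 4 of 12 were kept. The centred values hold no signal over background, so whether Saa1, Saa2 or Il1rn was detected is not known.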
